A study of Homo sapiens with 8 samples.

Results

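The genes described here are 7 cell-surface receptors and transporters through which endothelial cells take up, sort or carry proteins and lipids: TFRC, LRP1, LRP8, SORT1, SCARB1, FCGRT and MFSD2A. They were found in the deposited table by gene name, and all 7 were listed, among 30386 genes in all. Messenger RNA was measured in endothelial cells (iEC, 4 samples) and in retinal endothelial cells (iREC, 4 samples), both made from the human iPSC line WTC-TJP1 and taken at passage 1. The iREC came from a differentiation matched to that of the iEC, samples are lettered C to F in either group, and the labels name no agent that sets the differentiations apart. All 8 samples therefore share 1 genetic background and model 1 line, and since the labels do not say whether the letters are separate differentiations, p-values measure the spread between these samples only.

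The inner blood-retina barrier, like the blood-brain barrier, is formed by endothelium that admits few solutes between or through its cells and relies on receptors and transporters for what it lets pass. In receptor-mediated transcytosis a ligand binds its receptor at one face of the cell, enters in a coated vesicle and is sorted through endosomes to the other face, while in ordinary endocytosis the receptor returns and the cargo goes to the lysosome. TFRC brings in iron-loaded transferrin, FCGRT (the neonatal Fc receptor, FcRn) rescues IgG and albumin from degradation, LRP1 and LRP8 belong to the LDL receptor family, SORT1 (sortilin) sorts cargo between the Golgi, endosomes and the surface, SCARB1 (SR-BI) binds high density lipoprotein, and MFSD2A carries lysophosphatidylcholine with docosahexaenoic acid and is known for restraining vesicular transcytosis in brain and retinal endothelium.

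Total counts ran from 13739364 to 16971865 per sample. The endothelial marker list, 12 genes including PECAM1, CDH5 and KDR, summed to between 7552 and 9574 CPM (read counts scaled for library size) in iEC and to between 4575 and 10267 in iREC. These overlapping sums hide opposite changes. Of the 12 genes, 3 were called higher in iREC and 5 lower, against 13.2% and 11.7% of all tested genes. PECAM1 fell from 2233 ± 286 to 754 ± 175 CPM (SD, n = 4) and CDH5 from 1351 ± 229 to 799 ± 204 CPM, while TEK rose from 58.9 ± 20.6 to 833 ± 272 CPM and EMCN from 4.21 ± 1.89 to 432 ± 156 CPM, and KDR was not called. Markers of retinal neurons and pigment epithelium were near absent, with a summed level of at most 9.56 CPM in any sample. Sample iREC F stood apart. Its 12 mural and mesenchymal markers summed to 4479 CPM, against 617 to 1246 CPM in the other iREC samples and 234 to 489 CPM in iEC. Its 8 epithelial markers summed to 4924 CPM, against 302 to 1118 CPM in the other iREC samples and 391 to 1174 CPM in iEC, and its endothelial sum was the lowest of all 8 samples. Where leaving out iREC F ended a call or moved a value by more than 1.5 times, the value without it is given beside the result.

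Sequence features set 1 of the receptors apart from the others. The transferrin receptor message carries iron-responsive elements, hairpins that iron regulatory proteins bind when iron is scarce, and which in this 3′ UTR protect the message from decay. The messages of the ferritin chains FTH1 and FTL and of the iron exporter SLC40A1 (ferroportin) carry the same element in the 5′ UTR, where the bound protein blocks translation. The pattern searched was the loop CAGTGN, flanked by 5 base pairs (G-T pairs allowed) with an unpaired C just before the stem, on the transcript strand. It was found in 1 of the 7 receptors and in 1.47% of 19669 protein-coding genes of GENCODE release 29. TFRC-201, the longest coding TFRC transcript, held 4 matches in its 3′ UTR, at chr3:196050980-196051005, chr3:196050576-196050601, chr3:196050511-196050536 and chr3:196050464-196050489 (GRCh38, minus strand). FTH1 held its match at chr11:61967575-61967600 (minus strand), FTL at chr19:48965337-48965362 (plus strand) and SLC40A1 at chr2:189580662-189580687 (minus strand), all 3 in the 5′ UTR. The sequences are shown, 5′ to 3′ and as DNA, because the iron genes are compared with TFRC further on; capitals mark the loop, and a match is a description of the letters only.
TFRC element 1: ttatcggaagCAGTGCcttccataat
TFRC element 2: ttatcgggagCAGTGTcttccataat
TFRC element 3: gtatcggagaCAGTGAtctccatatg
TFRC element 4: ttatcgggaaCAGTGTttcccataat
FTH1 element: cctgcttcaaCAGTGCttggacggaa
FTL element: cttgcttcaaCAGTGTttggacggaa
SLC40A1 element: acttcagctaCAGTGTtagctaagtt

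The first comparison asked which receptors differed between iREC and iEC. FCGRT was the only 1 of the 7 called, higher in iREC, at an adjusted p under 0.05 by edgeR's quasi-likelihood test over all tested genes. All 7 passed the filter on low counts. Of the 15330 genes tested, 25.0% were called, 13.2% higher and 11.7% lower in iREC, so 1 call in 7 is no more than the background. The groups did not overlap in 1 of the 7, against 29.1% of tested genes. The authors' deposited table lists 3 of the 7 under an adjusted p of 0.05 (FCGRT, SORT1 and TFRC), where 16.3% of its 30386 genes pass. That share counts every listed gene, also those too low to be tested here, so it is not comparable with the other shares. SORT1 and TFRC lay just outside the threshold in the test used here. DESeq2 also called these 3, where it called 30.5% of genes, and edgeR without iREC F called FCGRT and TFRC, where it called 26.7%. Below, a mean is followed by ± its SD over the 4 samples of a group.

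**Figure D1:**
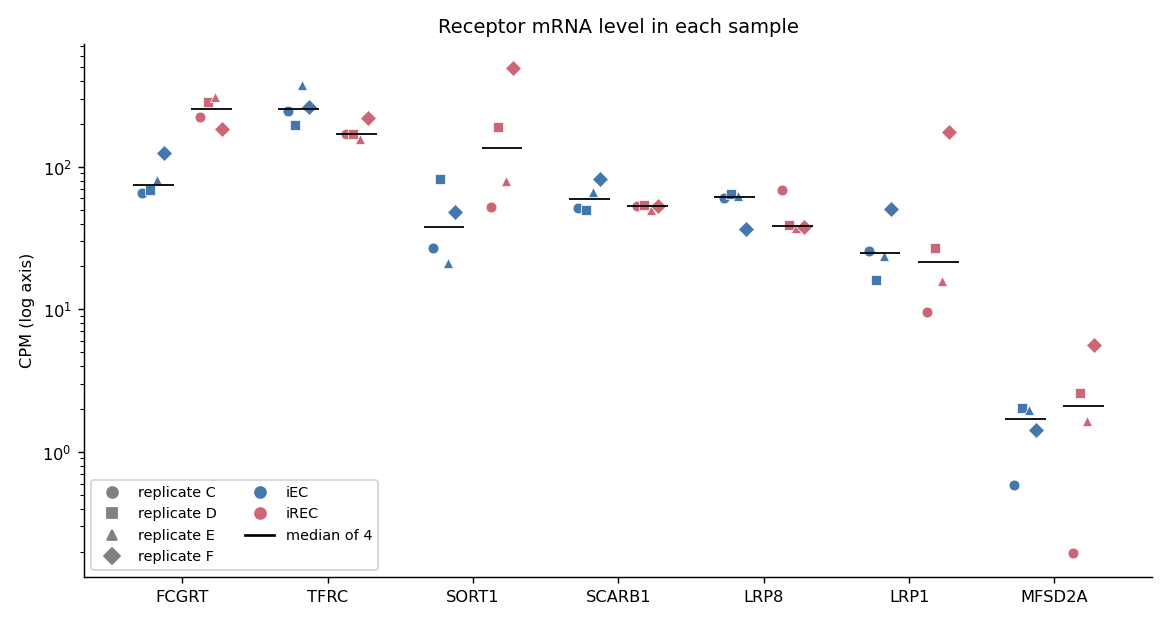
Level of the 7 receptor messages in each sample, in CPM on a log axis; points are samples, with a marker for each replicate letter, and black lines are group medians. FCGRT is the receptor whose iREC samples all lie above all iEC samples, and iREC F is the highest iREC sample for SORT1, LRP1 and MFSD2A.

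Among the receptors that handle protein cargo, FCGRT (ENSG00000104870, chromosome 19, 49506816 to 49526333, plus strand) had 65.9, 69.2, 80.3 and 126 CPM in iEC samples C, D, E and F and 224, 286, 307 and 185 CPM in iREC samples C, D, E and F. Every iREC sample was above every iEC sample, and the nearest values were those of the F samples. The mean rose from 85.3 ± 27.7 to 250 ± 55.9 CPM (SD, n = 4), a 2.93-fold difference (log2 fold change 1.55 ± 0.24, SE; 95% interval 1.01 to 2.10; edgeR adjusted p 0.00178). The call held under all 17 alternatives, with adjusted p of at most 0.0110. In iREC, FCGRT lay above 95.7% of tested genes by mean CPM, and in iEC above 82.4%.

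FCGRT reaches the cell surface and endosomes as a heterodimer with beta-2-microglobulin, encoded by B2M. B2M had 456 ± 195 CPM in iEC and 501 ± 93.5 CPM in iREC (SD, n = 4) and did not pass (log2 difference 0.14, edgeR, adjusted p 0.755). Within each sample, the length-scaled level of FCGRT (FPKM) was between 0.247 and 0.298 of that of B2M in iEC and between 0.498 and 0.913 of it in iREC. The ratio was highest in iREC E and lowest in iEC F, and the groups did not overlap. This ratio was chosen after the values had been seen and is not tested. The other tested genes of that list, the cytosolic antibody receptor TRIM21 and the chaperones CALR and CANX, were not called either. With edgeR, 0 of 4 tested members of the list passed, against 25% of all tested genes. TRIM21 was the 1 gene with an unadjusted p under 0.05 by edgeR (27.8 CPM in iREC against 37.9 CPM in iEC). DESeq2 called 2, TRIM21 and CANX, where it called 30.5% of all tested genes. The low-affinity receptor FCGR2B had no counts in iEC and 0.0654 to 2.50 CPM in iREC, below the filter.

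FCGRT is also known in macrophages, and the myeloid marker list was higher in iREC. Its 9 genes summed to 1.48 to 21.5 CPM in iEC and to 205 to 681 CPM in iREC. Nearly all of that was MRC1, a mannose receptor that some endothelium also makes, with 202 to 677 CPM in iREC. The defining leukocyte gene PTPRC was also called higher, from 0 counts in iEC, but had at most 2.75 CPM in any sample, CD163 at most 0.611 CPM, CD14 at most 0.183 CPM and SPI1 at most 0.118 CPM. In these bulk samples, more cells that make a message and more message per cell cannot be told apart.

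TFRC (ENSG00000072274, chromosome 3, 196027183 to 196082189, minus strand) had 245, 196, 372 and 262 CPM in iEC samples C, D, E and F and 170, 170, 156 and 219 CPM in iREC samples C, D, E and F. The groups overlapped only through iREC F, which lay above iEC D. The means were 269 ± 74.3 and 179 ± 27.4 CPM (SD, n = 4), a log2 difference of -0.59 ± 0.20 (SE; 95% interval -1.04 to -0.14; edgeR adjusted p 0.0590). TFRC was called lower in iREC without iREC F (log2 fold change -0.70, edgeR adjusted p 0.0349), without iEC D (-0.72, 0.0268) and with DESeq2 (-0.59, 0.0341). Its adjusted p over the alternatives ran from 0.0268 to 0.143. TFRC is known to follow proliferation, whose part in the TFRC values was not tested. Of the proliferation markers, 0 of 12 were called by edgeR or DESeq2, which called 25% and 30.5% of all tested genes. Of these markers, 0 had an unadjusted p under 0.05 (median log2 fold change 0.32). Those markers summed to 325 to 1596 CPM in iEC, lowest in iEC F, and to 917 to 1599 CPM in iREC.

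SORT1 (ENSG00000134243, chromosome 1, 109309568 to 109397951, minus strand) had 27.1, 82.3, 21.1 and 48.1 CPM in iEC samples C, D, E and F. In iREC samples C, D, E and F it had 52.0, 190, 79.9 and 492 CPM. The groups overlapped, since iEC D lay above iREC C and E. The means, 44.7 ± 27.6 and 203 ± 201 CPM (SD, n = 4), differed by 2.19 ± 0.71 on the log2 scale (SE; 95% interval 0.58 to 3.79; edgeR adjusted p 0.0509). SORT1 was called higher in iREC under 8 of the 17 alternatives, and its adjusted p ran from 0.0222 to 0.123. Without iREC F the log2 difference was 1.26 (95% interval 0.04 to 2.48; edgeR adjusted p 0.116), so that 1 library moved the fold by more than 1.5 times. Its relative SORL1, which sorts amyloid precursor protein, had 14.2 ± 3.32 and 12.0 ± 7.90 CPM (edgeR adjusted p 0.716). Of the other VPS10 family genes, 0 of 2 tested were called by edgeR or under any alternative, and 0 had an unadjusted p under 0.05. By edgeR, 25% of all tested genes were called.

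Among the LDL receptor family, LRP1 (ENSG00000123384, chromosome 12, 57128493 to 57213351, plus strand), a large endocytic receptor for many ligands, had 25.6, 16.1, 23.9 and 50.5 CPM in iEC samples C, D, E and F. In iREC samples C, D and E it had 9.62, 27.1 and 15.8 CPM, and in iREC F it had 176 CPM. The log2 difference of 0.98 ± 0.84 (SE; 95% interval -0.91 to 2.86; edgeR adjusted p 0.431) turned to -0.73 (95% interval -1.73 to 0.27; edgeR adjusted p 0.253) without iREC F. Its median was 24.7 CPM over the iEC samples and 21.4 CPM over the iREC samples. The authors' deposited table gives LRP1 a log2 fold change of 0.96 with no p-value and an adjusted p of 1. STAT6, at a mean of 135.5 CPM, lies on the opposite strand and shares 59 exonic bases with the 20839 of LRP1, and whether counting used the strand is not given in the sources used here.

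LRP8 (ENSG00000157193, chromosome 1, 53242364 to 53328070, minus strand), the apolipoprotein E receptor 2, which also binds reelin, had 60.5, 64.0, 62.7 and 36.9 CPM in iEC samples C, D, E and F and 68.4, 39.3, 37.3 and 37.9 CPM in iREC samples C, D, E and F. The genes annotated across it reached at most 0.710 CPM. In each group 3 samples lay close together, and the odd sample of each group, iEC F and iREC C, lay near the other group's 3. LRP8 was not called (log2 difference -0.29 ± 0.25, SE; 95% interval -0.85 to 0.26; edgeR adjusted p 0.424), and its adjusted p over the alternatives ran from 0.0853 to 0.652.

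Among the lipid receptors and transporters, SCARB1 (ENSG00000073060, chromosome 12, 124776856 to 124882668, minus strand) had 51.6, 49.6, 67.0 and 82.0 CPM in iEC samples C, D, E and F. In iREC it was level, at 53.2, 54.1, 49.9 and 53.3 CPM in samples C, D, E and F. It was not called (log2 difference -0.25 ± 0.17, SE; 95% interval -0.63 to 0.13; edgeR adjusted p 0.311). Its range over the 4 iREC samples was 0.12 on the log2 CPM scale, and 96.9% of the 4870 tested genes at a similar iREC level (within a factor of 2) had at least as wide a range.

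MFSD2A (ENSG00000168389, chromosome 1, 39955112 to 39969968, plus strand) was the lowest of the 7 in both groups. It had 9, 32, 33 and 20 counts in iEC samples C, D, E and F and 3, 36, 27 and 86 counts in iREC samples C, D, E and F. These were 0.585 to 2.02 CPM in iEC and 0.196 to 5.63 CPM in iREC, with iREC C at the floor of 3 counts. It was not called (log2 difference 0.74 ± 0.76, SE; 95% interval -0.97 to 2.45; edgeR adjusted p 0.516), and without iREC F the difference was -0.035 (95% interval -1.67 to 1.60). Its range over the iREC samples was wider than that of most genes at a similar level, 1.79% of 2632 of which spanned as much.

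**Figure D2:**
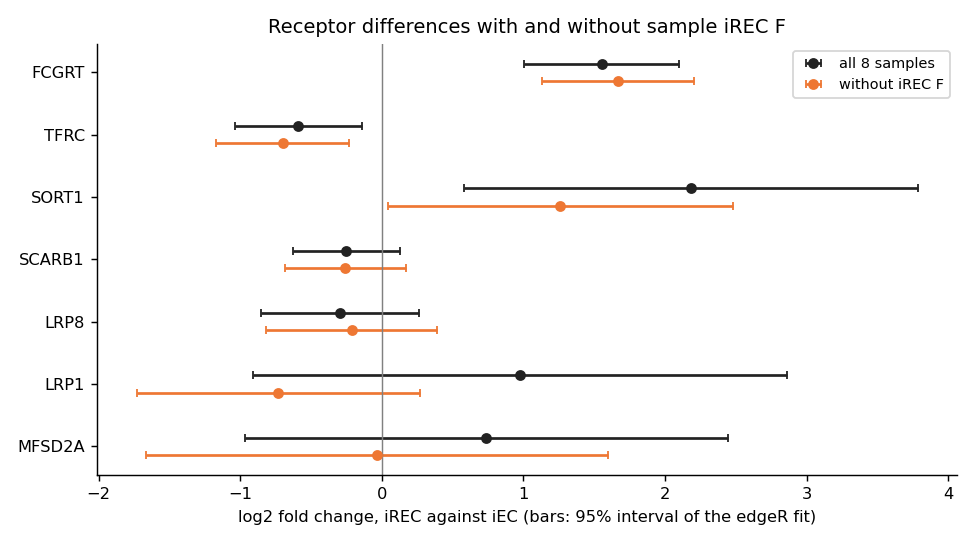
Log2 fold change of each receptor, iREC against iEC, from edgeR with all 8 samples (black) and without iREC F (orange); bars are 95% intervals, not adjusted for the number of genes. LRP1 goes from 0.98 to -0.73 without iREC F, SORT1 from 2.19 to 1.26 and MFSD2A from 0.74 to -0.035, while FCGRT goes from 1.55 to 1.67.

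Compared per length, the order of the receptors differed between the groups. In iEC, mean FPKM was highest for TFRC (33.8 ± 9.37, SD, n = 4), then FCGRT (20.4 ± 7.19), SCARB1 (8.05 ± 2.13), LRP8 (5.40 ± 1.15), SORT1 (4.84 ± 2.97), LRP1 (1.39 ± 0.752) and MFSD2A (0.371 ± 0.163). The ranges of TFRC and FCGRT overlapped, although TFRC was above FCGRT in 4 of 4 iEC samples, and LRP8 did not differ from SORT1 beyond their spread. In iREC, FCGRT came first (58.9 ± 12.8 FPKM), above TFRC (22.3 ± 3.59) in 4 of 4 samples with no overlap. SORT1 followed (21.9 ± 21.9), with a range from 5.58 to 53.3 FPKM that spanned both TFRC and SCARB1 (6.68 ± 0.258), then LRP8 (4.38 ± 1.45), LRP1 (2.71 ± 3.79) and MFSD2A (0.618 ± 0.571). Over the 3 iREC samples other than F the means of these were 11.5 ± 7.76 FPKM for SORT1, 0.822 ± 0.414 for LRP1 and 0.359 ± 0.292 for MFSD2A (SD, n = 3), with the order of the 7 means as before. Of the summed FPKM of the 7 receptors, FCGRT took 22.6% to 35.3% in iEC, 55.5% to 64.9% in iREC C, D and E and 30.4% in iREC F, where SORT1 took 36.7%. The groups overlapped through iREC F only. TFRC took 38.6% to 55.4% in iEC and 17.5% to 22.7% in iREC.

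SORT1, LRP1 and MFSD2A had the same order over the iREC samples, highest in F, then D, E and C. Their iREC ranges were wide. On the log2 CPM scale they spanned 3.24, 4.17 and 4.14, against a median range of 0.64 over all tested genes, and 2.34%, 1.06% and 1.09% of tested genes spanned as much or more. Over iREC C, D and E alone they spanned 1.86, 1.48 and 3.05, against a median of 0.43, and 4.21%, 7.26% and 0.907% of tested genes spanned as much or more. In iEC the 3 genes shared no such order, with LRP1 highest in F and SORT1 and MFSD2A highest in D. The epithelial and the pluripotency marker sums had that same order over the iREC samples, from 4924 to 302 CPM and from 519 to 54.4 CPM, and the mural and mesenchymal sum was also highest in F and next in D. In iREC F the collagen COL3A1 had 1641 CPM and the keratin KRT8 3025 CPM, while the epithelial cadherin CDH1 had 81.6 CPM. Other members of these lists were not high there. The epithelial genes EPCAM, CLDN4 and ESRP1 had at most 3.28, 0.654 and 0.328 CPM in any iREC sample. RGS5 of the mural list had at most 70.5 CPM in iREC, against 60.8 to 161 CPM in iEC. The pluripotency factor NANOG had at most 0.122 CPM in any iREC sample, while LIN28A made up most of that sum in iREC F (482 of 519 CPM) but not in iREC C (20.5 of 54.4 CPM). The part of these cells or messages in the SORT1, LRP1 and MFSD2A values was not tested.

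**Figure D3:**
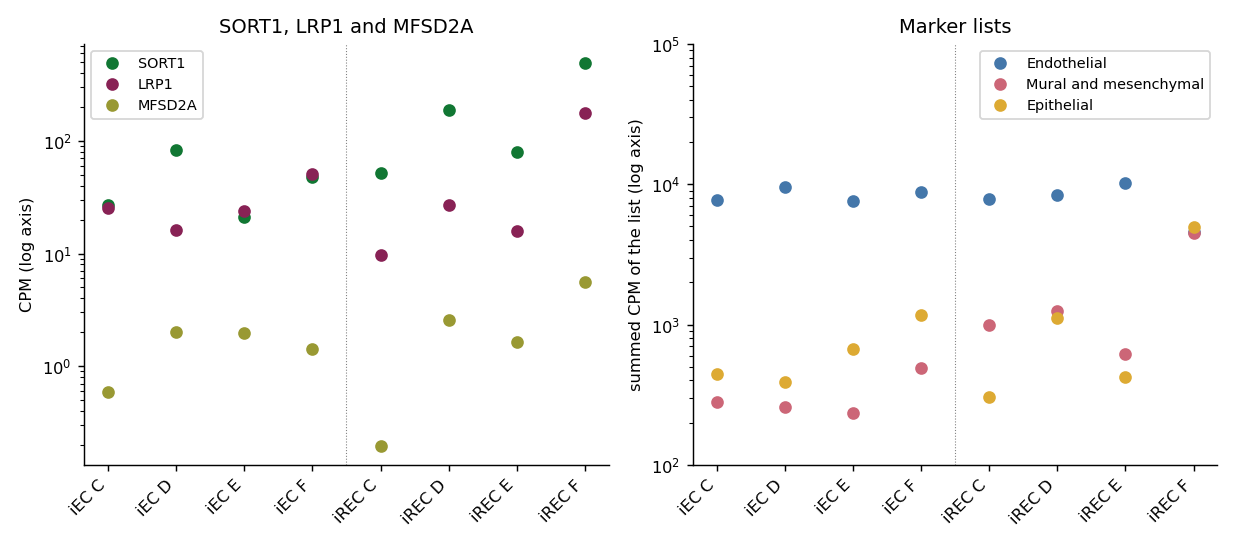
Left, CPM of SORT1, LRP1 and MFSD2A in each sample; right, summed CPM of the endothelial, mural and mesenchymal, and epithelial marker lists in the same samples; both axes are log scales. In iREC F all 3 receptors are at their highest, the mural and mesenchymal sum is 4479 CPM and the epithelial sum 4924 CPM, and the endothelial sum, its point hidden behind these, is at its lowest, 4575 CPM.

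The promoters of these 3 genes are shown because their levels moved together over the iREC samples. Promoter windows of 250 bases before to 50 after the start were matched by symbol for 6 of the 7 receptors in the RefSeq table (GRCh38.p14). The GC box, GGGCGG on either strand, was present in 15786 of all 35116 windows of that length. It occurred 3 times in the window of SORT1 (chr1:109397869-109398168, minus strand), once in that of LRP1 (chr12:57128233-57128532, plus strand) and 0 times in that of MFSD2A (chr1:39954895-39955194, plus strand). Of the other receptors, TFRC had 3, LRP8 5 and FCGRT 0. The FCGRT window (chr19:49512411-49512710, plus strand) lies inside the gene, downstream of the gene start given above, and its count does not describe that start. The windows read 5′ to 3′ on the gene's strand, with GC boxes in capitals, and a match is no sign that a factor binds there.
SORT1 promoter: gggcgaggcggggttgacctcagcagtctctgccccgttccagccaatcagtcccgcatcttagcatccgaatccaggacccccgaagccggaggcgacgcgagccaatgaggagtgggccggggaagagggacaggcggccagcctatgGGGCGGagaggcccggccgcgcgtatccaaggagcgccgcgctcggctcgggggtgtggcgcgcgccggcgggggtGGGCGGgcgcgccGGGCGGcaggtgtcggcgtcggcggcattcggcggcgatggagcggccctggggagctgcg
LRP1 promoter: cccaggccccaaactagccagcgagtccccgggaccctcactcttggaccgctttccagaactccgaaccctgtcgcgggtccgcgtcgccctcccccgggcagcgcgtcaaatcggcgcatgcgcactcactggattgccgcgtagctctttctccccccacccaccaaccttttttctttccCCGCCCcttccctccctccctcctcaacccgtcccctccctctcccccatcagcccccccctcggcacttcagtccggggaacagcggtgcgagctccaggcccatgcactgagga
MFSD2A promoter: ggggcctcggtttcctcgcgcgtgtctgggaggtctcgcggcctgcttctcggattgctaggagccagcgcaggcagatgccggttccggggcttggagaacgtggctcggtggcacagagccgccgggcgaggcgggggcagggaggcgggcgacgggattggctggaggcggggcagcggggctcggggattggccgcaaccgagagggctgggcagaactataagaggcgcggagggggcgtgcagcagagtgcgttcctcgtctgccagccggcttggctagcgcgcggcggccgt

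The genes whose pattern was most like that of each receptor were named by Pearson correlation of log2 CPM over the 8 samples, among the 9524 other protein-coding genes whose mean reached 10 CPM (9525 for MFSD2A). These are descriptions of shared levels over samples that also share group and library. FCGRT was closest to SELENON (r = 0.99), RENBP (0.99) and IFITM3 (0.99), each of which was also called higher in iREC. TFRC was closest to VMA21, UBE3C and NOP16 (r = 0.97 for each), of which none was called by edgeR. LRP1 was closest to MFGE8 (r = 0.99), UBAP1 (0.98) and the simple epithelial keratin KRT18 (0.97). SORT1 was closest to SMAD6 (r = 0.97), ID2 (0.96) and UBASH3B (0.95). SMAD6 and ID2 are textbook targets of BMP signalling. LRP8 was closest to PWWP2A (0.97), KIAA1841 (0.96) and GLYR1 (0.94), SCARB1 to CYBA (0.98), DHRS1 (0.98) and PDLIM2 (0.97), and MFSD2A to PARD3 (0.96), ELMSAN1 (0.94) and MICAL3 (0.93). Without the 2 samples farthest from a receptor's median, r stayed between 0.97 and 0.99 for FCGRT and between 0.83 and 0.93 for LRP1 and SORT1. For SCARB1 it fell to between 0.57 and 0.72 without iEC E and F, so that likeness rests on those samples. For MFSD2A, without iREC C and F, it was 0.87 with PARD3, 0.89 with ELMSAN1 and 0.73 with MICAL3.

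The other genes of these pathways were described from 13 lists, whose members share functions with the receptors. Of 149 tested list genes, 66 were called by edgeR, 36 higher and 30 lower, or 44.3% against 25.0% of all tested genes. The lists were chosen with earlier results of these data known. Among the other members of the LDL receptor family, 5 of 10 tested were higher and 1 was lower in iREC. VLDLR, the very low density lipoprotein receptor, rose from 7.92 ± 1.24 to 45.8 ± 8.63 CPM (2.53 on the log2 scale, SE 0.19; adjusted p by edgeR 4.36e-05). LRP6, a Wnt co-receptor, rose from 55.0 ± 13.7 to 112 ± 16.3 CPM, and LRP10 fell from 298 ± 59.6 to 187 ± 13.5 CPM. LRP2 (megalin), also called higher, had at most 0.195 CPM in iEC and ran from 0.785 to 395 CPM in iREC, and its log2 difference of 10.26 was 7.15 without iREC F. LRP5, called higher with a log2 difference of 3.29, ran from 1.70 to 57.0 CPM in iREC. Without iREC F its log2 difference was 2.44 and it was not called (edgeR adjusted p 0.0529). That setting was among the 6 of 17 alternatives under which LRP5 lost its call.

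Of the chaperones, adaptors and degraders of these receptors, 3 of 7 tested were higher (13.2% of all tested genes) and 1 was lower (11.7%). The endocytic adaptor DAB2 rose from 149 ± 51.2 to 768 ± 214 CPM (2.36 on the log2 scale; adjusted p by edgeR 0.000477). MYLIP, a ubiquitin ligase known to send VLDLR and LRP8 to the lysosome, rose from 10.1 ± 5.51 to 57.7 ± 22.4 CPM (2.51 on the log2 scale; adjusted p by edgeR 0.00258). APBB1 fell from 66.8 ± 12.4 to 40.0 ± 5.04 CPM. Of the ligands, 2 of 10 tested were higher and 3 lower. A2M, an LRP1 ligand, fell from 236 ± 41.5 to 22.2 ± 10.5 CPM, APOB fell from 17.2 ± 7.89 to 3.25 ± 1.98 CPM, and the plasminogen activator PLAT rose from 25.4 ± 14.2 to 196 ± 64.8 CPM, all called by edgeR. APP, also called lower (1.44-fold), lost that call under 10 of 17 alternatives, among them without iREC F (adjusted p by edgeR 0.0760).

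Of 9 other scavenger and lipid receptors tested, 5 were higher and 2 lower in iREC, against 13.2% and 11.7% of all tested genes. CD36, a fatty acid and lipoprotein receptor, rose from 0.987 ± 0.635 to 143 ± 91.7 CPM (7.20 on the log2 scale; adjusted p by edgeR 0.000158). STAB1, a scavenger receptor of sinusoids, rose from 264 ± 48.2 to 565 ± 168 CPM, and STAB2 had at most 0.355 CPM in iEC and 61.4 to 325 CPM in iREC. OLR1, the oxidised LDL receptor, was called higher but ran from 0.654 to 52.9 CPM in iREC, overlapping the iEC range, with a log2 difference of 5.32 that was 4.17 without iREC F. SCARF1, which binds modified LDL, fell from 205 ± 19.0 to 118 ± 36.7 CPM, a call lost under 4 of 17 alternatives. GPIHBP1, which holds lipoprotein lipase at the capillary wall, was called higher at a low level, 0.234 ± 0.360 against 8.31 ± 4.99 CPM. MSR1, the macrophage scavenger receptor, was called lower at a low level, 4.51 ± 2.23 against 0.0327 ± 0.0654 CPM, with no overlap. SCARB2, the lysosomal relative of SCARB1, had 217 ± 34.2 and 294 ± 37.0 CPM (adjusted p by edgeR 0.0576).

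The sterol list holds the regulators and enzymes of cholesterol synthesis and the efflux pumps. In it, 11 of 19 tested genes were lower in iREC (11.7% of all tested genes) and 1 was higher (13.2%). The median log2 fold change was -0.60, against 0.020 over all tested genes, and between 10 and 13 of the 19 were called under the alternatives. The sum of the list was 2617 to 2851 CPM in iEC and 1530 to 1964 CPM in iREC, with no overlap. The enzyme FDFT1 (squalene synthase) fell from 352 ± 29.9 to 124 ± 10.7 CPM (2.82-fold, log2 SE 0.12; adjusted p by edgeR 5.38e-05). DHCR7, which makes the last step to cholesterol, fell from 150 ± 18.6 to 54.9 ± 9.33 CPM, and the lysosomal cholesterol exporter NPC1 from 83.7 ± 10.1 to 28.8 ± 5.59 CPM. The transcription factors SREBF1 and SREBF2 fell by 1.29 and 0.60 on the log2 scale, and SQLE and INSIG1 by 1.38 and 1.43. HMGCS1 was not called (log2 difference -0.29). NR1H3, the oxysterol-sensing LXR alpha, rose from 5.23 ± 2.34 to 19.9 ± 5.34 CPM. Of the efflux pumps, ABCA1 had 110 ± 37.8 and 220 ± 94.8 CPM (adjusted p by edgeR 0.0520), and ABCG1 fell from 9.81 ± 4.27 to 1.48 ± 1.45 CPM (adjusted p by edgeR 0.0275).

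In the iron list, 5 of 15 tested genes were higher and 2 lower in iREC, against 13.2% and 11.7% of all tested genes. The median log2 fold change of the list was 0.013. SLC40A1, the iron exporter, rose from 2.42 ± 2.36 to 51.1 ± 25.3 CPM (4.39 on the log2 scale, SE 0.67; adjusted p by edgeR 0.00155). HEPH, the ferroxidase that works with it, rose from 8.67 ± 3.73 to 22.6 ± 5.64 CPM. Ferritin heavy chain FTH1 rose from 169 ± 51.8 to 398 ± 76.0 CPM (adjusted p by edgeR 0.00381), whereas the light chain FTL, at 1537 ± 642 and 1568 ± 255 CPM, did not pass (adjusted p by edgeR 0.952). STEAP3, an endosomal ferrireductase that acts on iron from transferrin, fell from 27.3 ± 11.9 to 5.60 ± 3.56 CPM, and SLC39A14, an importer of iron not bound to transferrin, from 125 ± 26.0 to 61.1 ± 28.4 CPM, a call lost under 6 of 17 alternatives. IREB2, which encodes an iron regulatory protein, rose from 79.1 ± 8.12 to 119 ± 2.67 CPM. NCOA4, the remaining higher call of the list, rose from 329 ± 20.5 to 435 ± 45.4 CPM. It lost that call under 7 of 17 alternatives, among them without iREC F (edgeR adjusted p 0.0634). Transferrin itself (TF), counted in the ligand list and not in this one, was called higher at a trace level, 0.0658 ± 0.0518 against 1.55 ± 0.907 CPM. Within each sample, TFRC was between 0.277 and 0.598 of FTH1 in FPKM in iEC and between 0.0882 and 0.180 of it in iREC, with no overlap; this ratio was chosen after the values had been seen and is not tested. Of the genes with the hairpin printed above, FTH1 and SLC40A1 were called higher, and FTL and TFRC were not called; message levels do not show whether protein followed.

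**Figure D4:**
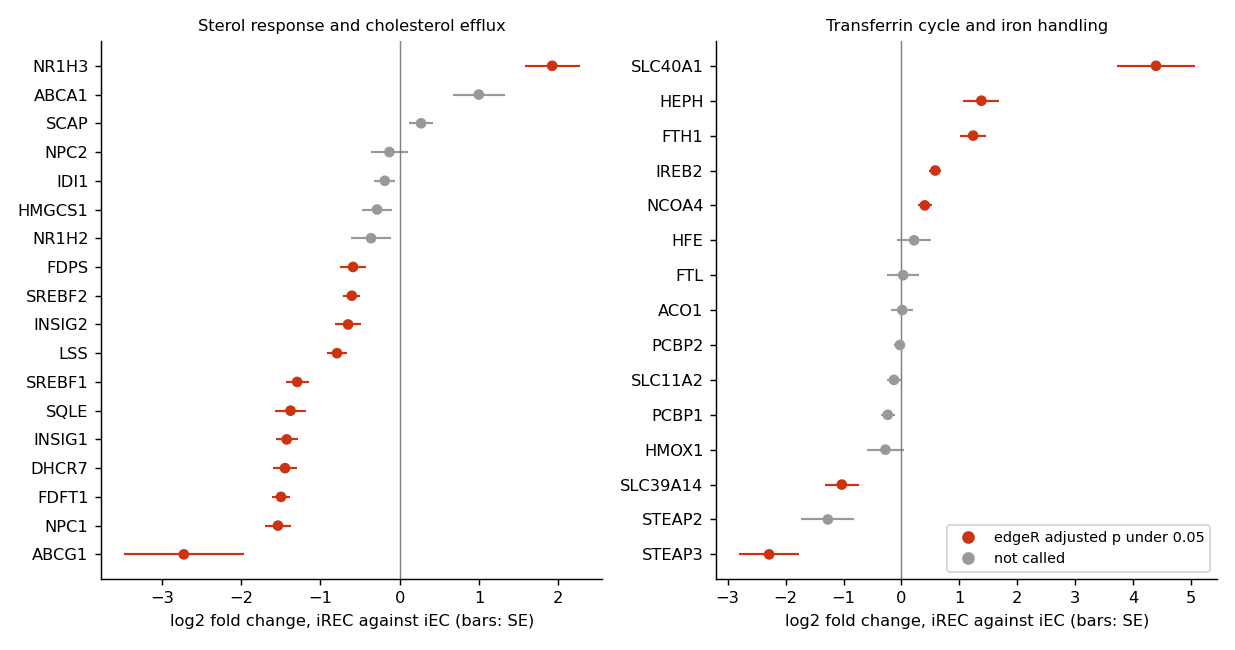
Log2 fold change, iREC against iEC, of tested genes of the sterol list (left; 1 gene not reported here is not drawn) and of the iron list (right, 15 genes); bars are standard errors and red marks an edgeR adjusted p under 0.05. In the sterol list 11 genes are called lower and 1, NR1H3, higher. In the iron list 5 are called higher and 2 lower. Of all tested genes, 13.2% are called higher and 11.7% lower.

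Of 10 other receptors used to carry cargo across brain endothelium, 4 were higher and 2 lower in iREC, against 13.2% and 11.7% of all tested genes. SLC3A2, the heavy chain of the CD98 amino acid transporter, rose from 99.0 ± 6.21 to 191 ± 17.6 CPM (adjusted p by edgeR 0.000341), and IGF1R from 76.7 ± 13.6 to 171 ± 40.9 CPM. The mannose 6-phosphate receptor IGF2R fell from 467 ± 93.9 to 251 ± 91.7 CPM, a call lost under 6 of 17 alternatives, and HBEGF, a growth factor precursor and the diphtheria toxin receptor, from 159 ± 34.8 to 53.8 ± 24.4 CPM. LEPR, called higher (log2 fold change 0.93), lost its call under 9 of 17 alternatives, among them without iREC F (0.58; adjusted p by edgeR 0.0605). Of 9 tested lysolipid and choline genes around MFSD2A, 1 was called, no more than the 25% of all tested genes. That gene was the choline transporter SLC44A1, which rose from 120 ± 40.3 to 384 ± 131 CPM.

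The 3 lists of vesicle machinery are given beside the 13.2% of all tested genes called higher and the 11.7% called lower, and nothing is read from their counts. The clathrin and AP2 list had 4 of 19 tested genes higher and 2 lower (median log2 fold change -0.033), with none of the clathrin chains or AP2 subunits among them by edgeR; between 2 and 7 of the list were called under the alternatives. AMPH, a membrane-bending protein, rose from 0.726 ± 0.141 to 22.4 ± 12.4 CPM, while the scaffolds ITSN1 and EPS15 rose and EPN2 fell by smaller amounts (log2 fold changes 0.42, 0.61 and -0.45), the calls of EPS15 and EPN2 being lost under 4 of 17 alternatives each. The early and recycling endosome list had 3 of 22 higher and 4 lower (median -0.062). EHD3 rose from 91.1 ± 12.6 to 326 ± 54.1 CPM (adjusted p by edgeR 8.48e-05), and its relatives EHD1 and EHD2 fell by 0.63 and 0.79 on the log2 scale, calls lost under 4 of 17 alternatives each. RAB11A, which returns transferrin receptors to the surface, fell from 294 ± 44.4 to 191 ± 16.8 CPM, and RAB11FIP5 from 131 ± 33.1 to 47.9 ± 14.8 CPM. The sorting nexins SNX4 and SNX27 of that list rose by 0.51 and 0.71. The retromer and GGA list, whose products carry sortilin between Golgi and endosome, had 3 of 13 higher and 2 lower (median -0.013). SNX2 rose from 76.8 ± 12.2 to 183 ± 36.8 CPM and the sortilin adaptor GGA2 from 49.2 ± 6.77 to 92.1 ± 24.3 CPM, and VPS26A, a core retromer subunit, fell from 153 ± 24.9 to 97.2 ± 3.37 CPM. SNX5 rose by 0.49 and AP1M1 fell by 0.56 on the log2 scale, each a call lost under 4 of 17 alternatives.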

How the data were processed

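The authors deposited 1 table with raw read counts per gene and sample, a normalized signal (counts divided by 1 size factor per sample), FPKM, log2 fold changes and p-values. The submitters' processing notes name fastp, HISAT2 2.0.5 and hg38; the counting program and the test behind the deposited p-values are not given in the sources used here. Gene starts and ends matched GENCODE release 29 for all 30386 genes.

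Counts were filtered with filterByExpr, scaled by TMM and tested with edgeR 4.0.16 (glmQLFit, glmQLFTest, 8 samples, group as the only term, Benjamini-Hochberg adjustment over 15330 genes, threshold 0.05). The fit was tested on simulated data with 4 against 4 samples, in which 196 of 15010 tested genes were changed. It recovered 29.3% of 2-fold and 74.2% of 4-fold changes, with 3 false calls among 104. With so few changed genes the adjustment is stricter than in the real data, where 25% of tested genes were called. These shares therefore do not measure the recovery of the real test. A gene that was not called may still differ. CPM used the scaled libraries and log2 CPM a prior count of 2. Intervals cover the spread between samples; 3 counts, the detection floor, cover counting error only. FPKM values, log2 fold changes and p-values of the authors are used as deposited. The members and lists were chosen with earlier results of these data known. The text names the 7 receptors, up to 3 called genes per direction and list with at least 10 CPM in a group, the 3 genes of nearest pattern per receptor, and the most abundant markers. LRP6, FTL, B2M, IREB2, NCOA4, TF, SREBF1, SREBF2, INSIG1, SQLE, HMGCS1, ABCA1, ABCG1, RAB11A, TRIM21, CANX, CALR, SCARB2, MSR1, GPIHBP1, STAB1, SORL1, FCGR2B, CDH5, TEK, EMCN, CDH1, EPCAM, CLDN4, ESRP1, RGS5, NANOG, PTPRC, CD163, CD14 and SPI1 were added after their values were seen.

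Each result was also computed with other scaling (size factors of DESeq2, upper quartile, or none beyond library size), other filters (none, or 1 CPM throughout a group with a mean count of 50), other tools (DESeq2 1.42.0 or limma-voom, limma 3.58.1), a block for the replicate letter, a restriction to protein-coding genes, and without each sample. Results for some listed genes are not reported here; they remain in the counts of their lists.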

Additional observations from a re-analysis of the deposited data

Results flagged for a closer look

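Dixon's gap test at its 95% level was applied to the highest and lowest sample of each group of 4. Of 30 groups examined (receptors and marker sums, in CPM), 5 had such a value. Chance gives about 1.5 for independent groups of normal spread. These groups share libraries and include sums near 0, so the count of 5 is not read as an excess. LRP1 in iREC F, at 175.9 CPM, lay above the 9.62 to 27.1 CPM of the other iREC samples. LRP8 was singled out in both groups, low in iEC F (36.9 CPM, against 60.5 to 64.0) and high in iREC C (68.4 CPM, against 37.3 to 39.3). The mural and mesenchymal sum in iREC F was 4479 CPM, against 617 to 1246 CPM. The erythroid sum in iEC C was 0.325 CPM against 0 in the other iEC samples, a level of a few counts.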

How the results depend on the processing

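The count of called genes, 3829, ran from 3281 to 4664 with all samples and from 2660 to 4214 with a sample left out; that of called pathway genes, 66, from 59 to 75 and from 48 to 66. FCGRT was called throughout. The count of called receptors, 1, was 3 with DESeq2 and 2 with upper quartile scaling, no filter, protein-coding genes only or the replicate block, and 1 to 3 with a sample left out. The additions were SORT1 (log2 fold change 2.20 with upper quartile scaling, 2.17 with no filter, 2.19 with DESeq2, 2.18 with protein-coding genes only, 1.84 with the replicate block; 1.26 to 2.65 with a sample left out) and TFRC (-0.59 with DESeq2; -0.72 to -0.39 with a sample left out). With a sample left out, LRP1 ran from -0.73 (without iREC F) to 1.38 and MFSD2A from -0.035 (without iREC F) to 1.12; the cause was not tested. With limma-voom LRP1 was 0.15 and MFSD2A 0.14, and with the replicate block 0.15 and 0.32, none of them called. LRP1 had no adjusted p in DESeq2, and MFSD2A, LRP2, OLR1 and TF fell below the stricter filter.

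Same-lettered samples did not deviate together in all letters (r across 15330 genes 0.17, -0.079, 0.029 and 0.25 for C, D, E and F). These correlations cannot settle whether same-lettered samples shared a batch, which the labels do not say. With the replicate block 3334 genes were called.

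Of 1493 recomputed values for 88 other named genes, 1363 kept direction and call, 103 lost the call, 14 gained one and 13 changed sign. The sign changes were in genes not called. With a sample left out, FTL ran from -0.15 to 0.32, B2M from -0.019 to 0.47, UBAP1 from -0.087 to 0.081, ELMSAN1 from -0.083 to 0.12, KRT18 from -0.30 to 1.17, MFGE8 from -0.49 to 0.86 and PARD3 from -0.059 to 0.30, the last 3 and the lowest values of UBAP1 and ELMSAN1 being without iREC F. FTL was -0.0015 with no filter. Of 357 recomputed list counts, 48 moved by more than 1.5 times. MFSD2A rests on 3 to 86 counts per sample, the fewest of the 7 receptors.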
